A study of Mus musculus with 20 samples.

Results

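The genes described here are the subunits of the oxidative phosphorylation machinery, encoded in the nucleus and in the mitochondrial genome. They were taken by symbol from the gene count tables: the Nduf subunits of complex I, the Sdh subunits of complex II, the Uqcr subunits of complex III, the Cox4 to Cox8 subunits of complex IV, the Atp5 subunits of complex V, and the mt-Nd, mt-Cytb, mt-Co and mt-Atp genes, with processed pseudogenes left out. This gave 97 of the 49568 symbols present in both tables, of which 84 are nuclear and 13 are mitochondrial. The nuclear members comprise 35 genes of complex I, 4 of complex II, 8 of complex III, 20 of complex IV, 15 of complex V and 2 further genes that share the Atp5 name, Atp5s and Atp5sl. The mitochondrial members comprise 7 genes of complex I, 1 of complex III, 3 of complex IV and 2 of complex V. Ndufa4 and Ndufa4l2 carry a complex I name and were placed with complex IV, where the Ndufa4 protein is found.

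Poly(A)-selected RNA-seq was made from the long-term stem cells of the blood (LT-HSC) and the multipotent progenitors they give rise to (MPP), sorted by flow cytometry from mouse bone marrow. The mice were C57BL/6 wild type (WT) or were labelled Ahr-KO, which names the aryl hydrocarbon receptor, a ligand-activated transcription factor. All were 8 to 12 weeks old and untreated. Each of the 4 groups, WT LT-HSC, Ahr-KO LT-HSC, WT MPP and Ahr-KO MPP, holds 5 libraries, 20 in all. The labels give neither the Ahr allele, the surface markers of the sort, a batch nor whether a library came from 1 animal or a pool, so the p-values measure the spread between these libraries. Libraries keep the numbers of their labels: 1, 4, 5, 6 and 8 for WT LT-HSC, 1, 2, 3, 4 and 7 for Ahr-KO LT-HSC, and 1 to 5 for both MPP groups, and values below are listed in that order.

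Oxidative phosphorylation passes electrons from NADH through complex I, or from succinate through complex II, to ubiquinone, complex III, cytochrome c and complex IV, and complex V uses the resulting proton gradient to make ATP. Complexes I, III, IV and V are assembled from subunits of both genomes, while complex II is wholly nuclear. The mitochondrial genes are transcribed as long polycistronic RNAs and processed inside the organelle, and the nuclear genes are transcribed one by one, many from promoters with sites for NRF1, ETS-family factors or YY1. Quiescent haematopoietic stem cells are known for relying more on glycolysis and less on respiration than their cycling progeny.

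Promoters are shown for 4 nuclear members named in the comparisons below: Ndufa4, which was higher in MPP of both genotypes, Sdhb and Cox6a1, 1 subunit each of complexes II and IV, and Atp5g2, 1 of the 3 genes for the membrane ring of complex V. Each runs from 250 bases before to 50 bases after the RefSeq start in GRCm38.p6, 5′ to 3′ on the gene's own strand, at chr6:11907401-11907700 (minus) for Ndufa4, chr4:140961021-140961320 (plus) for Sdhb, chr5:115348909-115349208 (minus) for Cox6a1 and chr15:102670998-102671297 (minus) for Atp5g2. Capitals mark matches to the NRF1 letters GCATGCGC or to the ETS letters CCGGAAG, each searched on both strands, where forward and reverse NRF1 matches can overlap. The 4 do not stand for the members. Sdhb, Cox6a1 and Atp5g2 hold NRF1 letters, which only 10 of 66 nuclear members with a promoter did. Atp5b, Atp5g3, Cox5a, Ndufa10, Ndufb4 and Sdha, also named below, held neither NRF1 nor ETS letters.
Ndufa4: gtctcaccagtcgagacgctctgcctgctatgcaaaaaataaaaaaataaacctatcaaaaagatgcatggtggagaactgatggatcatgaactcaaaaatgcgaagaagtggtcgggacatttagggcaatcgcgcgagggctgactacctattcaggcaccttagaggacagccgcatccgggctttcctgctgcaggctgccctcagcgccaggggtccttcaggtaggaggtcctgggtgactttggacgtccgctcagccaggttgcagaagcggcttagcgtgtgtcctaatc
Sdhb: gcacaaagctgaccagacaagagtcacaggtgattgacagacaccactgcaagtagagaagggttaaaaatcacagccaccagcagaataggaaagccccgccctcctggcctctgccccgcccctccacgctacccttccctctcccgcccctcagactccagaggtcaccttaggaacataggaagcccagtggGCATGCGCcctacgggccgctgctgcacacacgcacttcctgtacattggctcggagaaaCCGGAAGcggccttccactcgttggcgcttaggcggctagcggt
Cox6a1: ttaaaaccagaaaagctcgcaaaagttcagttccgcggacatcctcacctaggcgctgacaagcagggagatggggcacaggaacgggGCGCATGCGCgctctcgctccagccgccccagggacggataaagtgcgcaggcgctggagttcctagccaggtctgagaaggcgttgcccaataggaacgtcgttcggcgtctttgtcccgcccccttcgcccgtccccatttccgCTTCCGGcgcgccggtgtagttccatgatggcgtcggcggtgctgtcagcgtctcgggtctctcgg
Atp5g2: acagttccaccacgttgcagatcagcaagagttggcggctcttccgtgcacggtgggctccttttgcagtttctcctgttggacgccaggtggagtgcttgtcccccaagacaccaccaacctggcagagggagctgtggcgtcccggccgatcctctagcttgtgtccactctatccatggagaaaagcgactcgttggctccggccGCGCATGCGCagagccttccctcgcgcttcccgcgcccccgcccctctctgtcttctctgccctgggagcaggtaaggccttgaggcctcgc

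Of the 84 nuclear members, 66 had a RefSeq promoter. The NRF1 letters occurred in 10 of these 66 (15.2%), against 3.05% of 27025 genes with promoters of the same length. The ETS letters occurred in 16 (24.2%), against 9.93%, and the YY1 letters AAGATGGC in 9 (13.6%), against 3.19%. Among the 17492 protein-coding genes, a closer comparison, the NRF1, ETS and YY1 letters occurred in 3.94%, 12.9% and 3.57%. Of the 9 genes with YY1 letters, 7 belong to complex I and 2 to complex V. Ndufa4 held none of these letters in this window. A match is a description of the letters and not of binding.

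The libraries held 13712668 to 21622653 counts. Ahr itself was counted at 20.8 to 36.6 CPM (counts per 1000000 counts of the library, after TMM scaling) in WT LT-HSC, 18.5 to 29.7 in the Ahr-KO LT-HSC, 5.80 to 14.2 in WT MPP and 9.80 to 19.2 in the Ahr-KO MPP, and the difference between genotypes did not pass edgeR's quasi-likelihood test (adjusted p = 0.861 in LT-HSC and 0.663 in MPP). A count over the whole gene cannot show an allele that leaves most of the transcript, so these values do not check the labels, and Ahr-KO below means the libraries labelled so. The population labels were checked by listed markers: 12 of 12 LT-HSC markers were called lower and 7 of 7 MPP markers called higher in MPP in both genotypes. The neutrophil list summed to 7.13 to 93.6 CPM in WT LT-HSC but to 10.2 to 1473 CPM in the Ahr-KO LT-HSC, with libraries 2 and 3 highest. These 2 libraries also had the highest sums of the LT-HSC for the monocyte and macrophage list, 2389 and 2608 CPM against 459 to 739, and for the erythroid list, 2596 and 3043 CPM against 113 to 1865. Library 3 had 3801 CPM of the stroma and endothelium list against 75.0 to 152, mostly from Col1a1 (2024 CPM) and Col1a2 (1680 CPM). Col3a1, Lepr and Cdh5 of that list reached at most 1.78, 2.42 and 1.53 CPM in the Ahr-KO LT-HSC, so the sum does not show the list as a whole. One library, WT LT-HSC 1, stood apart: its correlation with the other WT LT-HSC libraries across genes was 0.925 to 0.930, where other libraries reached 0.988 within their group. The main comparisons of the members are given with and without it. The isoform means and some counts of the further gene lists include it.

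As a share of the transcriptome as counted, the nuclear and the mitochondrial members were of similar size. The sums leave out nuclear copies of some mitochondrial genes, described below. How reads shared with these copies were counted is not given, and the mitochondrial sums depend on it. The nuclear members summed to 14598, 10165, 10259.9, 10646 and 10071 CPM in WT LT-HSC, 11064, 11494, 11756, 11229 and 10624 in the Ahr-KO LT-HSC, 11150.5, 12249.7, 12689, 12047 and 13826 in WT MPP and 13003, 13309, 13178, 11771 and 11106 in the Ahr-KO MPP. The mitochondrial members summed to 3644, 11403, 9469.7, 10479 and 10222 CPM in WT LT-HSC, 11371, 12223, 12093, 11158 and 15002 in the Ahr-KO LT-HSC, 15071, 7245, 10296, 12493 and 14117 in WT MPP and 14446, 13187, 11633, 11954 and 9675 in the Ahr-KO MPP. WT LT-HSC 1 had the highest nuclear sum and the lowest mitochondrial sum of all 20 libraries, Ahr-KO LT-HSC 7 had a mitochondrial sum above the other 9 LT-HSC libraries, and otherwise the 4 groups overlapped in the mitochondrial sum. The ratio of the mitochondrial to the nuclear sum was 0.25 in WT LT-HSC 1, against 0.92 to 1.12 in the remaining WT LT-HSC, 0.99 to 1.41 in the Ahr-KO LT-HSC, 0.59 to 1.35 in WT MPP and 0.87 to 1.11 in the Ahr-KO MPP. In bulk libraries fewer cells of a type and less RNA per cell cannot be told apart, and both also move a sum given in CPM.

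**Figure D1:**
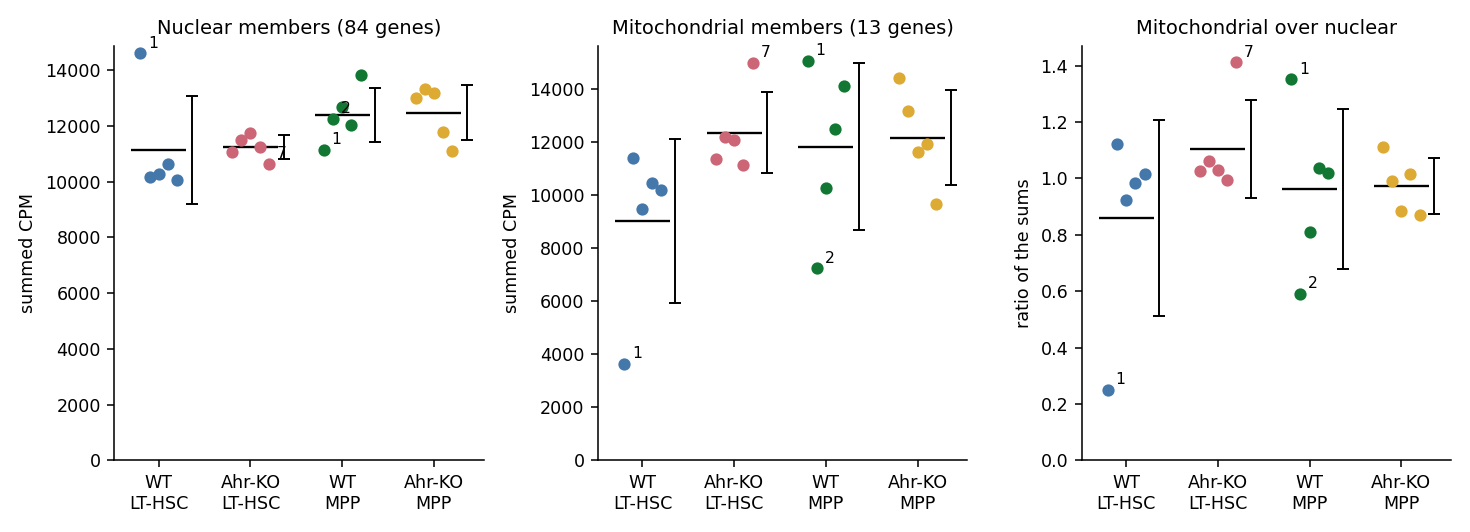
Summed CPM of the nuclear members (left), of the mitochondrial members (middle) and their ratio (right) in the 20 libraries by group, where each point is a library, the line is the group mean and the bar is the SD (n = 5). WT LT-HSC 1 lies at 14598 CPM in the nuclear panel, 3644 CPM in the mitochondrial panel and 0.25 in the ratio, apart from the other libraries.

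Per kilobase of exon, the mitochondrial transcripts stood above most nuclear ones. The median over all 20 libraries was 61.0 CPM per kilobase for the nuclear subunits of complex I, 107 for complex II, 93.3 for complex III, 85.9 for complex IV and 76.6 for complex V. For the mitochondrial subunits it was 189 for complex I, 1198 for mt-Cytb of complex III, 1798 for complex IV and 1789 for complex V. Within complex I the nuclear range ran from Ndufb2 at 4.06 to Ndufc2 at 139 CPM per kilobase, both accessory subunits, and the mitochondrial range from mt-Nd4l at 102 to mt-Nd1 at 696, both core subunits of the membrane arm. The highest nuclear values were Atp5a1 at 338 and Atp5b at 335 CPM per kilobase, which encode the alpha and beta subunits of the catalytic head of complex V, and the highest of all was mt-Co3 at 3172, a core subunit of complex IV. Exon length here is that of all annotated exons joined, so a long rarely used exon lowers a gene's value.

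Some mitochondrial values are uncertain because reads can be shared. The nuclear copy Gm28661 on chromosome 1 (24614885 to 24615565, GRCm38) is identical to mt-Co2 over 681 bases, and its count was 1.00021 to 1.0012 times that of mt-Co2 in the 20 libraries. The neighbouring copies Gm28437, Gm28438 and Gm10925 were likewise counted at 1.015 to 1.021 times mt-Co3, 0.945 to 1.018 times mt-Nd3 and 1.02 to 1.09 times mt-Atp6 plus mt-Atp8. A further copy, Gm29216, matches a part of mt-Co1 over 483 bases with 1 mismatch. It was counted at 0.474 to 0.668 times mt-Co1. How reads with several positions were treated in the counting is not given in the sources used here. Overlap also affects mt-Atp8 and mt-Atp6, mt-Nd4l and mt-Nd4, and mt-Nd5 and mt-Nd6, the last on opposite strands, and the kit named in the labels does not mark strand.

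WT LT-HSC 1 differed from the other 4 WT LT-HSC libraries in opposite directions in the nuclear and the mitochondrial members. Of 78 nuclear members tested in LT-HSC, 71 were highest in it among the WT LT-HSC libraries, where 39.8% of all 16065 genes were highest, and all 13 mitochondrial members were lowest in it, where 41.9% of all genes were lowest. The median log2 ratio of its CPM to the mean of the other 4 was 0.72 for complex I (33 of 35 genes above 0), 0.75 for complex II (4 of 4), 0.78 for complex III (8 of 8), 0.49 for complex IV (14 of 14) and 0.54 for complex V (11 of 15). Those of the mitochondrial members were -1.37 for complex I, -1.45 for mt-Cytb, -2.52 for complex IV and -1.77 for complex V. Ndufb8, an accessory subunit of complex I, was at 206 CPM in it against 69.0 to 76.8 in the others, and Ndufa12, another, was at 244 against 83.4 to 101. These genes were chosen for their values in this library, as the nuclear members with the highest ratios.

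The exceptions among the nuclear members were mostly genes of complex V. Atp5b was at 960 CPM in WT LT-HSC 1 against 1283 to 1365 in the remaining WT LT-HSC, Atp5g3 at 129 against 168 to 190 and Atp5g2 at 86.8 against 109 to 123, while Atp5g1, which encodes the same ring subunit as the latter pair, was at 189 against 135 to 149. Among the mitochondrial members the smallest shortfall was in mt-Nd2, with a log2 ratio of -0.58, and the largest in mt-Nd3, which stood at 5.33 CPM against 47.8 to 57.3. Of the 3 catalytic-core genes of complex IV, mt-Co2 was at 159 against 846 to 1022, mt-Co3 at 406 against 2100 to 2592 and mt-Co1 at 1424 against 2228 to 2881. The 2 mitochondrial ribosomal RNAs summed to 301 CPM in this library against 815 to 1036.

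Transcript length moved with this library. The median exon length was 1587 bases for the 77 nuclear members with a length and 784 for the 13 mitochondrial members, against 3540 for 16883 tested genes. Across genes, Spearman's rho between exon length and a library's log2 CPM relative to its population mean was -0.294 in WT LT-HSC 1 and 0.238 to 0.351 in the remaining WT LT-HSC, -0.0635 to 0.118 in the Ahr-KO LT-HSC, -0.288 to 0.286 in WT MPP and -0.246 to 0.272 in the Ahr-KO MPP (a description across genes, which are not replicates). The LT-HSC mean includes WT LT-HSC 1, and a library far from the mean moves the others the opposite way. The opposite signs in WT LT-HSC are therefore partly built in. In WT MPP the library with the lowest rho, number 5, had the highest nuclear sum and the library with the highest rho, number 1, the lowest nuclear and the highest mitochondrial sum. In the Ahr-KO MPP the lowest rho and the highest nuclear sum were those of number 2 and the highest rho and the lowest nuclear sum those of number 5, whereas in the Ahr-KO LT-HSC number 7 had both the lowest rho and the lowest nuclear sum. The part of transcript length in the results below was not tested.

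**Figure D2:**
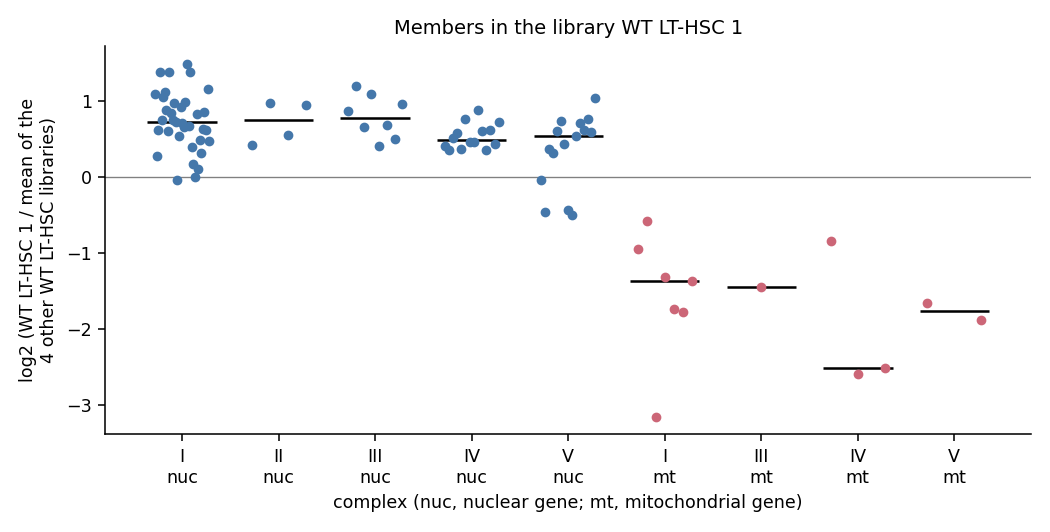
Log2 ratio of the CPM in WT LT-HSC 1 to the mean of the other 4 WT LT-HSC libraries, by complex, for nuclear and mitochondrial members, where each point is a gene and each line a median. The nuclear medians lie between 0.49 and 0.78 and the mitochondrial medians between -2.52 and -1.37.

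The comparison of Ahr-KO with WT in LT-HSC asks whether the respiratory genes of stem cells differ with the genotype label. No member was called by edgeR's quasi-likelihood test at an adjusted p under 0.05 (0 of 91 tested), where 1 of 16065 genes was called (0.00622%), and 4 members had an unadjusted p under 0.05 (8.85% of all genes did). The nuclear members had a median log2 difference, Ahr-KO minus WT, of -0.01 with 38 of 78 above 0, and the mitochondrial members one of 0.52 with 13 of 13 above 0, while the median of all genes was 0.00. The 4 with an unadjusted p under 0.05 were mt-Nd2, mt-Nd1, mt-Co1 and Atp5g2.

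mt-Nd2, a core subunit of complex I, had the smallest p. It was at 76.2, 121, 105, 109.9 and 121 CPM in WT LT-HSC and 137, 141, 139, 135 and 173 in the Ahr-KO LT-HSC. Every Ahr-KO library was above every WT library, and the log2 difference was 0.46 ± 0.13 (SE, adjusted p = 0.460, edgeR). mt-Co1, the catalytic subunit of complex IV, was at 1424, 2881, 2228, 2663 and 2436 CPM in WT and 2930.3, 3088, 2946, 2679 and 3179 in Ahr-KO, a log2 difference of 0.37 ± 0.16 (adjusted p = 0.557, edgeR). WT LT-HSC 4 lay above the lowest Ahr-KO library, so the groups overlapped for this gene. mt-Nd1 had a log2 difference of 0.53 ± 0.22 (adjusted p = 0.544, edgeR). The log2 differences of the other mitochondrial members of complex I were 0.65 for mt-Nd3, 0.39 for mt-Nd4, 0.54 for mt-Nd4l, 0.42 for mt-Nd5 and 0.53 for mt-Nd6. Those of the remaining ones were 0.42 for mt-Cytb, 0.58 for mt-Co2, 0.54 for mt-Co3, 0.49 for mt-Atp6 and 0.52 for mt-Atp8.

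By complex, the nuclear medians in LT-HSC were -0.04 for complex I (10 of 35 above 0), -0.06 for complex II (1 of 4), -0.01 for complex III (4 of 8), 0.03 for complex IV (9 of 14) and 0.08 for complex V (14 of 15). The highest nuclear value was that of Atp5g2, at 86.8, 123, 119.7, 109 and 118 CPM in WT and 134, 135, 126, 151 and 114 in Ahr-KO, with a log2 difference of 0.26 ± 0.11 (adjusted p = 0.557, edgeR). The lowest was that of Atp5s, a coupling factor outside the enzyme's core, at 37.2, 19.4, 18.2, 22.8 and 21.3 CPM in WT and 19.6, 17.1, 16.6, 24.0 and 17.1 in Ahr-KO, with -0.32 ± 0.20 (adjusted p = 0.694, edgeR). The groups overlapped for both of these genes. Groups did not overlap for 5 members that were higher in Ahr-KO, namely Atp5a1, mt-Nd1, mt-Nd2, mt-Nd3 and mt-Co2, where 2.23% of all genes were separated so, and for Atp5sl, which was lower, where 1.41% were.

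These values turn on WT LT-HSC 1. Without it, 203 of 16338 genes were called (1.24%; 0.428% higher and 0.814% lower) but again no member (0 of 91), while 53 of 91 members (58.2%) had an unadjusted p under 0.05 against 18.9% of all genes. The nuclear median was then 0.17 with 75 of 78 members above 0, and the mitochondrial median was 0.29 with 13 of 13, against 0.02 over all genes. The nuclear medians of the complexes were 0.17 for complex I (35 of 35 above 0), 0.15 for complex II (4 of 4), 0.19 for complex III (8 of 8), 0.18 for complex IV (13 of 14) and 0.18 for complex V (15 of 15), whereas both Atp5s and Atp5sl stayed below 0. The smallest adjusted p was 0.0549, for mt-Co2 (0.31 ± 0.07) and mt-Nd3 (0.37 ± 0.08), followed by Ndufa1, a small accessory subunit of complex I (0.31 ± 0.07, adjusted p = 0.0601, edgeR). The groups did not overlap for 26 nuclear and 4 mitochondrial members that were higher in Ahr-KO, where 4.56% of all genes were separated so, and for 1 nuclear member, Atp5sl, that was lower, where 4.2% were.

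One Ahr-KO library bears on the mitochondrial values. Ahr-KO LT-HSC 7 had the highest mitochondrial sum of the LT-HSC, 15002 CPM. With it and WT LT-HSC 1 both left out, an alternative chosen after seeing the data, 292 of 16211 genes (1.8%) and 3 of 91 members were called, the 3 nuclear and higher in Ahr-KO: Atp5g1 (0.35 ± 0.07, adjusted p = 0.0383), Cox6a1 (0.33 ± 0.07, adjusted p = 0.0402) and Cox8a (0.29 ± 0.06, adjusted p = 0.0382), all by edgeR. Cox6a1 and Cox8a are the common forms of 2 small subunits of complex IV, and Atp5g1 encodes the ring subunit of complex V. The nuclear median was then 0.18 and the mitochondrial median 0.19. Limma's voom with sample weights, fitted on all 10 libraries, called 264 of 16065 genes (1.64%) and 2 of 91 members, Atp5g1 (0.34, adjusted p = 0.0314) and mt-Nd2 (0.33, adjusted p = 0.0481).

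**Figure D3:**
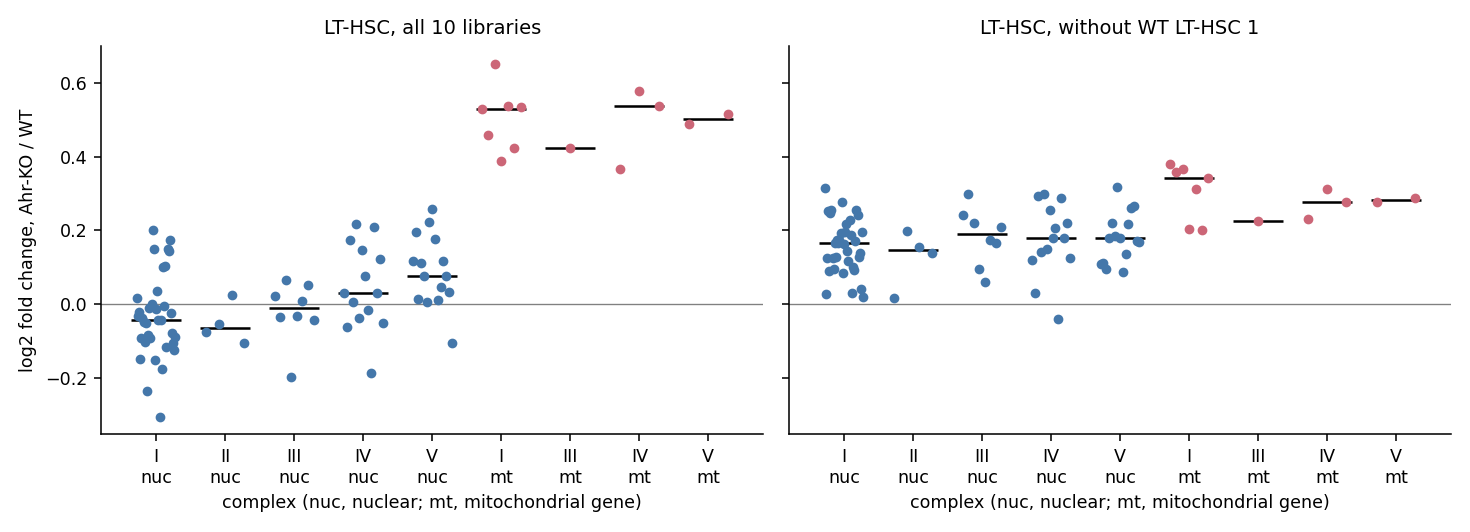
Log2 difference between Ahr-KO and WT LT-HSC by complex, with all 10 libraries (left) and without WT LT-HSC 1 (right), where each point is a member and each line a median. The nuclear medians lie between -0.06 and 0.08 on the left and between 0.15 and 0.19 on the right, and all mitochondrial members lie above 0 in both.

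In MPP the same comparison between genotypes called no member (0 of 92), where 5 of 16077 genes were called (0.0311%; 0.0187% higher and 0.0124% lower), and 1 member had an unadjusted p under 0.05. The nuclear median was 0.08 with 60 of 79 members above 0 and the mitochondrial median was 0.05 with 11 of 13. Each sign rests on 1 library: without WT MPP 1 the nuclear median was -0.0037, and without WT MPP 2 the mitochondrial median was -0.067. The sum of the listed proliferation genes lay between 1447 and 1837 CPM in the Ahr-KO MPP, against 1683 to 2546 CPM for WT, and 8 of 8 had a log2 difference below 0 (median -0.37), none was called and 6 had an unadjusted p under 0.05, and their part was not tested. The nuclear medians were 0.06 for complex I (26 of 35 above 0), -0.05 for complex II (0 of 4), 0.11 for complex III (6 of 8), 0.14 for complex IV (14 of 15) and 0.08 for complex V (12 of 15). The genotypes overlapped for all 92 members, where 0.61% of all genes lay wholly higher and 0.56% wholly lower in Ahr-KO. The smallest p was that of Cox4i2 (1.14 ± 0.46, adjusted p = 0.675, edgeR), the low-oxygen isoform of a regulatory subunit of complex IV, described with the isoforms below.

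Complex II differed in sign from the others here, though no gene of it passed the test. Sdha, its flavoprotein, was at 828, 561, 539, 504 and 468 CPM in WT MPP and 392, 457, 498, 458 and 597 in the Ahr-KO MPP. WT MPP 1 was well above the other libraries, the remaining values overlapped, and the log2 difference was -0.27 ± 0.15 (adjusted p = 0.776, edgeR), the lowest of the nuclear members. Sdhb, the iron-sulphur subunit, had -0.03, and of the membrane anchors Sdhd had -0.08 while Sdhc was within 0.01 of 0. The highest nuclear value among members with a mean of at least 5 CPM was that of Ndufb4, an accessory subunit of complex I, at 26.3, 55.4, 66.3, 52.9 and 72.9 CPM in WT and 95.8, 86.1, 63.5, 60.6 and 46.3 in Ahr-KO. These ranges overlapped (0.36 ± 0.26, adjusted p = 0.843, edgeR).

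The comparison of MPP with LT-HSC within WT asks how the respiratory genes differ between stem cells and their progenitors. Of 92 members tested, 8 rose (8.70%) and 1 fell in MPP, where 11% of all 17416 genes rose and 11.3% fell (22.3% in either direction). The 8 include Cox6a2, which passed the filter only through MPP, so its p-value is not support for a rise. The nuclear median was a log2 difference, MPP minus LT-HSC, of 0.13 with 59 of 79 members above 0. The mitochondrial median was 0.40 with 13 of 13 above 0, but no mitochondrial member was called, and the smallest adjusted p among them was 0.0562 for mt-Nd1 (0.57 ± 0.21, edgeR). The listed proliferation genes, 8 of 8 called higher in WT MPP, summed to 881 to 1409 CPM in LT-HSC of both genotypes, highest in WT LT-HSC 1, and to 1683 CPM or more in every WT MPP library. The part of these genes in the differences was not tested.

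The MPP and LT-HSC libraries did not overlap for 6 nuclear members that were higher in MPP, among them Ndufs1, Atp5sl, Cox6a2, Atp5b and Atp5a1, where 8.32% of all genes were separated so, and for Cox4i2, which was lower, where 8.09% were. Cox6a2 was tested only through its MPP values, so its separation is not support for a rise.

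In complex I, 3 of 35 nuclear members rose, among them Ndufs1 and Ndufa10. Ndufs1, the largest core subunit, was at 125, 107, 109.8, 119.8 and 106 CPM in LT-HSC and 153, 136, 125, 149 and 137 in MPP. All MPP libraries were above all LT-HSC libraries, a log2 difference that passed the test (0.30 ± 0.08, adjusted p = 0.0107, edgeR). Ndufa10, an accessory subunit, had 0.24 ± 0.08 (adjusted p = 0.0471, edgeR), and its call ended when any of 9 of the 10 WT libraries was left out, that is any but WT LT-HSC 1. The median over the nuclear members of complex I was 0.06 with 21 of 35 above 0.

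In complex IV, 3 of 15 nuclear members rose and 1 fell. Ndufa4 (GRCm38 chr6:11900292-11907497, minus strand) was at 277, 169.5, 161, 178 and 163 CPM in WT LT-HSC and 221, 361, 388, 318 and 401 in WT MPP. The LT-HSC library that reached into the MPP range was number 1, and the log2 difference was 0.83 ± 0.18 (adjusted p = 0.00234, edgeR). Cox5a, a nuclear subunit found in the enzyme of all tissues, was at 73.4, 48.4, 50.6, 53.5 and 51.7 CPM in LT-HSC and 51.6, 68.3, 76.7, 89.0 and 89.5 in MPP (0.43 ± 0.15, adjusted p = 0.0454, edgeR). Its groups overlapped, and its call ended without any 1 of WT LT-HSC 4, 5, 6 or 8 or of WT MPP 2, 3, 4 or 5. Cox6a2, which was too low to be tested in LT-HSC alone, is 1 of the 3 that rose, but its p-value is not support for a rise. Cox4i2 fell, and both are described with the isoforms.

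In complex V, 2 of 15 nuclear members rose and all 15 were above 0, with a median of 0.12. Atp5b was at 960.3, 1283, 1335, 1365 and 1305 CPM in WT LT-HSC and 1710.4, 1512, 1589, 1437 and 1587 in WT MPP, without overlap (0.33 ± 0.09, adjusted p = 0.0112, edgeR). Of the 3 genes that encode the same ring subunit, Atp5g3 rose (0.36 ± 0.11, adjusted p = 0.0264, edgeR), a call that ended without WT LT-HSC 8, WT MPP 3 or WT MPP 5. The other two had 0.29 ± 0.12 for Atp5g1 and 0.25 ± 0.13 for Atp5g2. No gene of complexes II and III was called, with medians of 0.14 and 0.02.

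WT LT-HSC 1 set much of this outcome too. Without it, 30 of 92 members rose (32.6%) and 1 fell, where 15.2% of 17788 genes rose and 14.7% fell (29.9% in either direction). The 30 were 12 of complex I, 2 of complex II, 4 of complex III, 5 of complex IV, 5 of complex V, and Atp5s and Atp5sl. Those of complex IV include Cox6a2, whose p-value is not support for a rise. The nuclear median was then 0.27 with 75 of 79 above 0, and the mitochondrial median was 0.21 with none called. Sdhb had the smallest p (0.45 ± 0.07, adjusted p = 4.66e-05, edgeR), followed by Atp5f1, a subunit of the peripheral stalk of complex V (0.43 ± 0.07, adjusted p = 9.00e-05), Ndufa4 (1.01 ± 0.16, adjusted p = 1.11e-04) and Ndufa1 (0.65 ± 0.11, adjusted p = 1.73e-04). Sdhb was at 281, 139, 145, 142 and 147 CPM in WT LT-HSC and 208, 189.6, 195, 171 and 213 in WT MPP, so that only WT LT-HSC 1 reached and passed the MPP values. Leaving out WT MPP 1 in place of it gave 15 of 92 members called, where 3653 of 17785 genes (20.5%) were.

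Between MPP and LT-HSC of the Ahr-KO label, 5 of 92 members rose (5.43%) and none fell, where 12.5% of all genes rose and 10.7% fell (23.2% in either direction). The nuclear median was 0.21 with 72 of 79 above 0, and the mitochondrial median was 0.00 with 7 of 13. Of the 8 proliferation genes 5 were called higher in the Ahr-KO MPP, and their part was not tested. By complex, the nuclear medians were 0.20 for complex I (32 of 35 above 0, none called), 0.16 for complex II (3 of 4, none called), 0.19 for complex III (8 of 8, none called), 0.33 for complex IV (13 of 15, 3 called) and 0.20 for complex V (14 of 15, none called). This comparison holds no WT library, but it shares its estimate of the spread with WT: without WT LT-HSC 1 in the shared fit, 17 members rose, where 17% of all genes rose, 15.2% fell and 32.2% did either, and the nuclear median was again 0.21.

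Ndufa4 was at 168, 177, 196, 193 and 173 CPM in the Ahr-KO LT-HSC and 459, 419, 347, 397 and 238 in the Ahr-KO MPP. Every MPP library was above every LT-HSC library, and the log2 difference was 1.04 ± 0.18 (adjusted p = 3.19e-04, edgeR). The groups were separated so for 2 members, Ndufa4 and Sdhb, where 11.1% of all genes were, and for no member the other way, where 10.4% were. Atp5sl, known as an assembly protein of complex I, was at 23.6, 23.8, 24.9, 24.8 and 22.1 CPM in LT-HSC and 40.0, 40.8, 24.9, 38.3 and 34.6 in MPP (0.58 ± 0.12, adjusted p = 0.00165, edgeR). Atp5s was at 19.6, 17.1, 16.6, 24.0 and 17.1 CPM in LT-HSC and 35.7, 28.5, 23.1, 37.4 and 28.7 in MPP (0.70 ± 0.18, adjusted p = 0.00866, edgeR). Both rose, with overlapping groups. Cox5a (0.44 ± 0.15, adjusted p = 0.0421) and Cox6c, a small subunit of complex IV (0.49 ± 0.17, adjusted p = 0.0433), were near the threshold in edgeR. The call of Cox5a ended without any 1 of Ahr-KO LT-HSC 1, 2, 4 or 7 or of Ahr-KO MPP 1, 2 or 3, and that of Cox6c without any 1 library other than Ahr-KO MPP 5.

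**Figure D4:**
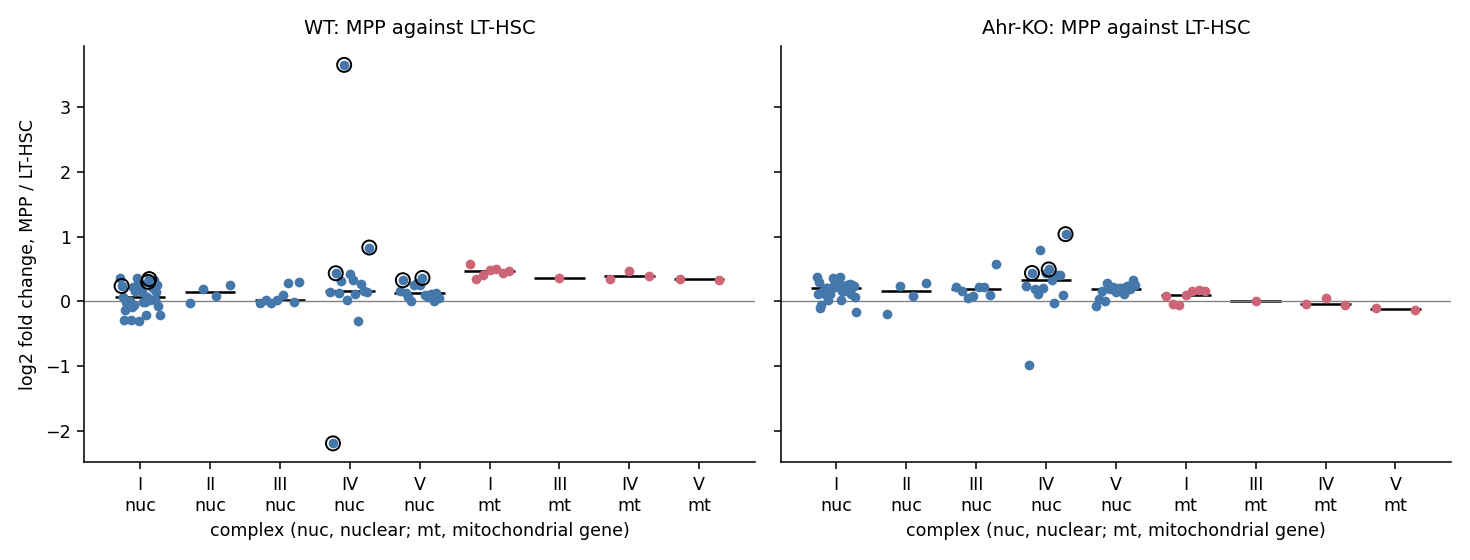
Log2 difference between MPP and LT-HSC by complex in WT (left) and Ahr-KO (right), where each point is a member, each line a median, and a circled point passed the test. All 13 mitochondrial members lie above 0 in WT and 7 of 13 in Ahr-KO, and Cox6a2 at 3.66 and Cox4i2 at -2.20 lie outside the range of the other members in WT. Cox6a2 entered the test only through MPP, so its circle is not support for a rise.

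Complex IV has subunits with alternative isoforms, which were followed as pairs. Cox4i1 (GRCm38 chr8:120668222-120674207, plus strand), the common isoform of subunit 4, was at 246 ± 35.7 CPM in WT LT-HSC, 248 ± 16.8 in the Ahr-KO LT-HSC, 273 ± 52.3 in WT MPP and 291 ± 41.5 in the Ahr-KO MPP (mean ± SD, n = 5). Cox4i2 (chr2:152754173-152765037, plus strand) was at 3.09, 2.86, 2.80, 2.05 and 1.56 CPM in WT LT-HSC and 0.205, 0.897, 0.857, 0.415 and 0.276 in WT MPP. All LT-HSC libraries were above all MPP libraries, and it fell by 2.20 ± 0.40 on the log2 scale (adjusted p = 4.86e-04, edgeR). In Ahr-KO it was at 1.62, 1.73, 3.25, 3.48 and 1.64 CPM in LT-HSC and 0.843, 1.73, 1.02, 1.26 and 1.08 in MPP, where the groups overlapped and the difference did not pass the test (-0.98 ± 0.38, adjusted p = 0.0692, edgeR). The difference between these genotype-specific changes was 1.21 ± 0.54 with an adjusted p of 0.766, so the genotypes were not shown to differ.

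Cox6a2 (chr7:128205435-128206387, minus strand), the heart and muscle isoform of subunit 6A, was close to the limit of detection. It was at 0, 0.0453, 0.306, 0.162 and 0.0944 CPM in WT LT-HSC and 1.57, 1.35, 1.66, 1.45 and 1.88 in WT MPP. WT LT-HSC 1 had 0 counts, which allows up to 3, all MPP libraries were above all LT-HSC libraries, and Cox6a2 rose by 3.66 ± 0.82 on the log2 scale (adjusted p = 0.00305, edgeR). It passed the filter for testing in MPP but not in LT-HSC alone. It thus entered this test through the group where it was high, and its p-value is not support for a rise. In Ahr-KO it was at 0.406, 1.29, 3.67, 0.0458 and 0.606 CPM in LT-HSC and 2.25, 3.53, 2.04, 1.87 and 0.835 in MPP (0.80 ± 0.69, adjusted p = 0.453, edgeR), with library 3 of the LT-HSC above all MPP libraries. Ahr-KO LT-HSC 3 and 2, the highest for this gene in their group, also had the highest sums of the neutrophil list, at 1473 and 969 CPM, and of the monocyte and erythroid lists. Library 3 also had the highest sum of the stroma list, mostly from Col1a1 and Col1a2. The part of cells with these transcripts was not tested. The common isoform Cox6a1 was at 142 ± 18.0 CPM in WT LT-HSC, 163 ± 16.7 in the Ahr-KO LT-HSC, 177 ± 32.1 in WT MPP and 177 ± 24.6 in the Ahr-KO MPP.

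The remaining isoform pairs are given by their group means, which in WT LT-HSC include library 1. That library was at 277 CPM for Cox6b1, 22.5 for Cox6b2, 154 for Cox7a2, 154 for Cox7a2l and 190 for Cox8a. The remaining WT LT-HSC averaged 163, 16.2, 83.4, 100 and 140 CPM in this order of genes. Cox6b1 averaged 186, 179, 189 and 207 CPM in WT LT-HSC, Ahr-KO LT-HSC, WT MPP and Ahr-KO MPP, and Cox6b2, known from testis, averaged 17.4, 19.1, 23.3 and 25.8. Per kilobase of exon, over all libraries, these were 269 and 19.3 CPM. In the same order Cox7a2 averaged 97.5, 95.4, 106 and 120.2 CPM and Cox7a2l averaged 111, 96.6, 89.9 and 95.1, while the muscle form Cox7a1 had at most 25 counts in any library. Cox8a averaged 150.0, 161, 165 and 172 CPM, whereas the muscle form Cox8b had 0 counts in all 20 libraries and Cox8c at most 1. Cox7b2 had at most 2 counts and Ndufa4l2, the low-oxygen relative of Ndufa4, at most 3. These 5 genes (Cox7a1, Cox7b2, Cox8b, Cox8c and Ndufa4l2) were too low to be tested in any comparison, and Cox6a2 was too low in LT-HSC alone.

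**Figure D5:**
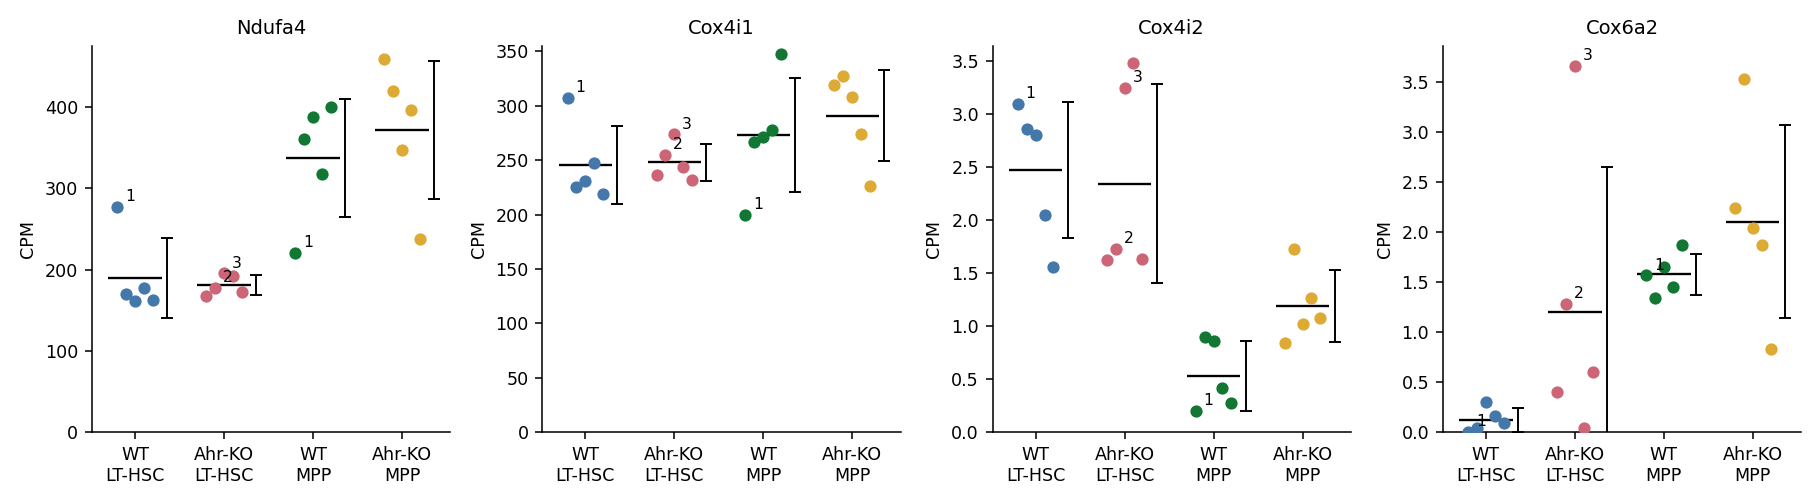
CPM of Ndufa4, Cox4i1, Cox4i2 and Cox6a2 in the 20 libraries by group, where each point is a library, the line is the group mean and the bar is the SD (n = 5). Ndufa4 lies at 161 to 277 CPM in LT-HSC and 221 to 459 CPM in MPP, and Cox4i2 in WT MPP lies below every WT LT-HSC library.

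The difference between the Ahr-KO effect in MPP and that in LT-HSC was tested directly. No gene of 17416 was called by edgeR (0%), 1125 (6.46%) had an unadjusted p under 0.05, and DESeq2 and voom called 51 and 17. No member was called by edgeR, and 4 had an unadjusted p under 0.05: Cox6a2, Atp5a1, Atp5b and Cox4i2. Atp5b had -0.29 ± 0.12 (adjusted p = 0.750) and Atp5a1 -0.23 ± 0.09 (adjusted p = 0.648, edgeR). The mitochondrial median of this difference was -0.40 with 0 of 13 above 0, and the nuclear median was 0.09 with 57 of 79 above 0. Without WT LT-HSC 1 these medians were -0.19 and -0.08, so the nuclear sign turned. With voom they were 0.036 and -0.10, so both signs turned.

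The spread between libraries of a group was compared for the mitochondrial and the nuclear members. The median coefficient of variation was 22.8% for nuclear and 35.9% for mitochondrial members in WT LT-HSC, 6.78% and 11.5% in Ahr-KO LT-HSC, 16.9% and 28.1% in WT MPP, and 14.4% and 15.7% in Ahr-KO MPP. All genes had 21.2%, 11.5%, 15.5% and 15.2% in the same order of groups. The WT LT-HSC values rest on library 1: without it they were 4.63% for nuclear members, 8.39% for mitochondrial members and 8.60% for all genes. Complex II summed to 1495, 966, 964, 982 and 942 CPM in WT LT-HSC and 1384, 1114, 1081, 1011 and 1070.4 in WT MPP, and complex III to 1826, 986, 984, 1021 and 985 and 1112, 1216, 1193, 1166 and 1384. WT LT-HSC 1 was the highest WT LT-HSC library for both. WT MPP 1 was the highest WT MPP library for complex II, and of the 4 Sdh genes only Sdha was highest there in its group.

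The other genes of the pathway were taken from lists of electron carriers, assembly factors, mitochondrial gene expression and the citric acid cycle. In neither comparison between genotypes was a gene of these lists called. Cycs, the cytochrome c that carries electrons from complex III to IV, rose in MPP in WT (0.62 ± 0.18, adjusted p = 0.0174) and in Ahr-KO (0.62 ± 0.18, adjusted p = 0.0157), as did Cyc1 of complex III (0.38 ± 0.12, adjusted p = 0.0270, and 0.36 ± 0.12, adjusted p = 0.0365), by edgeR. The counts of these lists stand against 11% of all genes that rose and 11.3% that fell in WT, and 12.5% and 10.7% in Ahr-KO. Cycs and Cyc1 were the 2 called genes (28.6%) of 7 tested carriers and further subunits in each genotype.

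Of 47 assembly factors, 2 rose (4.26%) and 1 fell in WT and 4 rose (8.51%) and 1 fell in Ahr-KO. Foxred1, which assembles complex I, rose in both (0.44 ± 0.13 and 0.82 ± 0.13, adjusted p = 0.0163 and 1.08e-04, edgeR), and Taco1, a translational activator of mt-Co1, was called in Ahr-KO (1.15 ± 0.21, adjusted p = 4.66e-04). Of 29 genes for transcription, replication and RNA handling in the organelle, 3 rose (10.3%) and 1 fell in WT and 8 rose (27.6%) and 2 fell in Ahr-KO. Ssbp1, the single-stranded DNA-binding protein of mitochondrial DNA, rose by 0.68 ± 0.16 and 1.21 ± 0.16 (adjusted p = 0.00326 and 1.51e-05, edgeR), and Hsd17b10, a subunit of mitochondrial RNase P, had -0.75 ± 0.14 and -0.49 ± 0.14 (adjusted p = 4.74e-04 and 0.0122). Of 81 mitochondrial ribosomal proteins, 5 rose in WT (6.17%) and 10 in Ahr-KO (12.3%) and none fell, among them Mrps22 and Mrps9 in both. Without WT LT-HSC 1, 35 of these 81 rose in WT (43.2%, where 15.2% of all genes did) and 22 in Ahr-KO (27.2%, where 17% did). In WT, 6 of the 47 assembly factors then rose (12.8%) and none fell. Of the 29 genes for transcription, replication and RNA handling, 7 then rose (24.1%) and 3 fell in WT.

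Of 11 translation factors, 3 rose (27.3%) and 1 fell in WT, with Mtif2, an initiation factor, at 0.59 ± 0.12 (adjusted p = 0.00111, edgeR), and 1 rose (9.09%) in Ahr-KO, Guf1 (1.06 ± 0.19, adjusted p = 4.25e-04). Of 12 regulators of mitochondrial biogenesis, none was called in WT and Esrra, a nuclear receptor that drives respiratory genes, rose in Ahr-KO (0.73 ± 0.17, adjusted p = 0.00337, edgeR). Of 17 genes of the citric acid cycle and pyruvate dehydrogenase, 5 rose in WT (29.4%) and 2 in Ahr-KO (11.8%). Idh2, the NADP-dependent isocitrate dehydrogenase of the organelle, rose by 0.46 ± 0.09 in WT and 0.46 ± 0.09 in Ahr-KO (adjusted p = 5.90e-04 and 5.39e-04, edgeR). Without WT LT-HSC 1, 8 of these 17 genes rose in WT (47.1%) and 5 in Ahr-KO (29.4%), where 15.2% and 17% of all genes did. Neither mitochondrial ribosomal RNA was called in any of the 4 comparisons.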

How the data were processed

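Gene counts were deposited by the authors as 1 table per population, with 10 libraries each. The submitters' processing notes list DESeq2 1.12.4, featureCounts of Subread 1.5.0p3, STAR 2.5.2b, Trimmomatic 0.36 and the build GRCm38.p5, and per the labels the kit selected poly(A) RNA and did not mark strand. The labels' text on RNA preparation also speaks of dendritic cell samples, so it may describe other samples. The counts were tested with edgeR 4.0.16 (filterByExpr, TMM factors, robust quasi-likelihood fit, Benjamini-Hochberg adjustment over all genes tested), in R 4.3.3, checked on simulated counts. Ahr-KO and WT were compared within each table, and MPP with LT-HSC, and the difference of the Ahr-KO effects, in 1 fit of all 20 libraries. The tables were counted separately, and the join is by symbol. CPM were computed after TMM scaling of all 20 libraries, and the biological coefficient of variation was 32.5% in LT-HSC and 29.2% in MPP.

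The members and gene lists were chosen with earlier results of these data known. Named with values are all mitochondrial members, up to 6 called members per comparison and direction by smallest p, the called member of smallest p of each complex, the smallest p where none was called, the highest and lowest nuclear members with at least 5 CPM, the isoform pairs and Sdh genes, and up to 3 called genes per list; 1 member that the rule names is not reported here. Others were named after their values were seen: these are the genes of the WT LT-HSC 1 paragraphs, the members separated between groups and those called without a library. Exon lengths came from GENCODE M21 for 95 of 97 members, and promoters from RefSeq. Library numbers were not used as pairs. Alternatives were DESeq2 1.42.0, limma 3.58.1 (voom), other scaling, filters and fits, and libraries left out.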

Additional observations from a re-analysis of the deposited data

Results flagged for a closer look

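For the sums, the mitochondrial genes and the named nuclear genes, 176 groups of 5 libraries were examined for a highest or lowest library far from its nearest neighbour relative to the range of its group. Such a library was found in 46 of them. Chance gives about 1 in 20 groups, and the values share genes and libraries, so they are not independent. WT LT-HSC 1 accounts for 32 of the 46.

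WT LT-HSC 1 was the highest of its group in the nuclear sum (14598 CPM) and in the nuclear sums of complex I (4549 CPM), complex II (1495 CPM), complex III (1826 CPM) and complex IV (2229 CPM). It was the lowest in the mitochondrial sum (3644 CPM) and in the mitochondrial sums of complex I (632 CPM), complex III (466.5 CPM), complex IV (1989 CPM) and complex V (557 CPM). Of the single mitochondrial genes it was lowest in mt-Nd1 (281 CPM), mt-Nd3 (5.33), mt-Nd4 (128), mt-Nd4l (7.47), mt-Nd5 (102), mt-Nd6 (31.4), mt-Cytb (466.5), mt-Co2 (159), mt-Co3 (406), mt-Atp6 (499.6) and mt-Atp8 (57.6). Of the named nuclear genes it was highest in Ndufa4 (277 CPM), Ndufb4 (108), Cox5a (73.4), Cox6a1 (174), Cox6c (160.3), Atp5s (37.2), Sdha (737), Sdhb (281), Sdhc (129) and Sdhd (348). It was lowest in Atp5b (960.3 CPM).

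Ahr-KO LT-HSC 7 was the highest of its group in the mitochondrial sum (15002 CPM) and in the mitochondrial sums of complex I (2351 CPM), complex III (1851 CPM) and complex V (2978 CPM). Among single genes it was highest in mt-Nd1 (1035 CPM), mt-Nd2 (173), mt-Nd3 (73.8), mt-Nd6 (129.6), mt-Cytb (1851), mt-Atp6 (2597) and mt-Atp8 (381). WT MPP 1 was the highest of its group in complex II (1384 CPM) and in Sdha (828 CPM), and Ahr-KO MPP 3 in Sdhc (115.6 CPM).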

How the results depend on the processing

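No member was called between genotypes in LT-HSC or MPP, or in the difference of the 2 effects, under any alternative except those named here. Genes called between genotypes were 3 in LT-HSC and 3 in MPP with DESeq2 size factors, 4 and 3 in LT-HSC with no filter and with at least 5 CPM in 5 libraries, 147 and 50 with DESeq2's test (51 for the difference of effects), 264 and 8 with voom (17 for the difference) and 14 in LT-HSC with all 20 libraries in 1 fit. Leaving out WT LT-HSC 1 and Ahr-KO LT-HSC 2 and 3 gave 32 in LT-HSC, and leaving out WT LT-HSC 1 and Ahr-KO LT-HSC 7 gave 292 and 3 members. Voom called 2 members in LT-HSC, with nuclear medians of 0.17 there and -0.10 for the difference of effects and a mitochondrial median of 0.036 for the latter, and 6505 genes and 50 members in WT and 20 members in Ahr-KO between populations. Members called between populations, in WT and Ahr-KO, were 5 and 3 with no filter, 5 and 3 with the 5 CPM filter, 4 and 12 with each genotype alone, 28 and 16 without WT LT-HSC 1 and Ahr-KO LT-HSC 2 and 3, 24 and 8 without WT LT-HSC 1 and Ahr-KO LT-HSC 7 (nuclear medians 0.18 in LT-HSC and -0.11 for the difference), and 17 in Ahr-KO without WT LT-HSC 1. Except for the last, the share of all genes called is not given beside these counts, nor beside the 20 of voom in Ahr-KO. They show how calls moved with the processing and cannot be read as results about the members. Deviations of same-numbered libraries from their group means had r from -0.383 to 0.300, and in no comparison were all over 0.1. The labels do not say whether same-numbered libraries share animals, and these values cannot settle it. The main tests treat all libraries as independent. In Ahr-KO between populations all 4 were above 0 (0.0263, 0.118, 0.197 and 0.300), and numbers 3 and 4 but not 1 and 2 correlated best with themselves. With the number as a replicate block, 0 genes were called between genotypes in LT-HSC (nuclear median -0.18) and 0 in MPP, and 1544 genes with 4 members in WT and 2056 with 1 member in Ahr-KO between populations. Leaving out each library in turn, calls ranged from 0 to 203 in LT-HSC, 0 to 4 in MPP, 3190 to 5323 in WT and 3204 to 4112 in Ahr-KO. Members called then ranged from 6 to 31 in WT and 3 to 8 in Ahr-KO. The nuclear median ranged from -0.061 to 0.17 in LT-HSC, -0.00 to 0.16 in MPP, -0.081 to 0.13 for the difference, 0.03 to 0.27 in WT and 0.13 to 0.22 in Ahr-KO. The mitochondrial median ranged from 0.29 to 0.57 in LT-HSC, -0.07 to 0.15 in MPP, -0.56 to -0.19 for the difference, 0.21 to 0.51 in WT and -0.10 to 0.06 in Ahr-KO. Of the named genes' values under the alternatives, 277 kept their side of the threshold, 70 lost it, 1 gained it and 0 reversed. The cause of these changes was not tested. Depth left the 5 members with at most 25 counts in any library untested.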
